A study of Mus musculus with 6 samples.

Results

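The 8 genes described here are the VAMP (vesicle-associated membrane protein) genes Vamp1, Vamp2, Vamp3, Vamp4, Vamp5, Vamp7 and Vamp8, and Snap23, which encodes a partner of the VAMPs. They were taken by gene symbol from a table of 23930 amplicons. A row was found for 6 of the 8. Vamp3 and Vamp7 were not analysed here. The set was chosen because the Vamp2 amplicon fell in knockout bone, and the other members were added by family name. The values of Vamp2 are therefore given as a description, with no test, and the test values of its relatives come from a fit across the whole table made with this fall already known.

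The tissue was the shaft of the humerus, a long bone, from E16.5 mouse embryos (E, embryonic day). The Stat3 KO group had 3 samples of the genotype Prrx1Cre; Stat3C/C, in which a Cre driver active in limb bud mesenchyme removes a conditional Stat3 gene. The Ctrl group had 3 samples labelled wild type with the genotype Stat3C/+, a single conditional allele and no driver, so an effect of the driver and an effect of Stat3 loss cannot be told apart. The Cre acts in mesenchyme, so blood, endothelial and nerve cells in the tissue are not its main targets. RNA was read with an AmpliSeq panel, which amplifies 1 short target, an amplicon, per gene, and values are RPM (reads scaled to a common library total). The libraries held 9126493 to 11809106 reads in Stat3 KO and 11640697 to 13376550 reads in Ctrl. The bone label was checked on osteoblast markers, led by Col1a1. Its amplicon was at 27669 ± 2574 RPM in Stat3 KO and 28711 ± 2067 RPM in Ctrl (SD, n = 3 each). In Stat3 KO, 7 of 8 tested osteoblast and 5 of 7 tested chondrocyte markers were called lower (limma, adjusted p under 0.05). Over all amplicons tested 11.0% were called lower. This difference between groups does not check the label. The Stat3 amplicon itself gave 208, 201 and 170 RPM in Stat3 KO and 211, 201 and 211 RPM in Ctrl, with overlapping groups (limma, adjusted p = 0.380). Whether it lies inside the deleted part is not stated in the labels, so it does not check the labels.

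VAMPs are R-SNAREs, short proteins anchored in the membrane of a transport vesicle. Each winds together with Q-SNAREs of the target membrane, a syntaxin and a SNAP protein or its equivalents, and this bundle pulls the membranes into fusion. The ATPase NSF then takes the bundle apart for reuse. In neurons Vamp1 and Vamp2 serve transmitter release, while other family members serve recycling, lysosomal and granule traffic in most cell types, bone cells among them.

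Vamp2 encodes synaptobrevin 2, which acts in synaptic vesicle release and in the insertion of glucose transporter vesicles in muscle and fat. Its amplicon (AMPLVamp2_2_1.8417) was at 0.508, 0.219 and 0.511 RPM in Stat3 KO replicates 1 to 3, against 61.8, 64.1 and 58.1 RPM in Ctrl replicates 1 to 3. All 3 knockout libraries were near 0 and all 3 controls were close to each other. The recovered reads numbered 6, 2 and 5 in Stat3 KO and 719, 858 and 708 in Ctrl. The group means were 0.413 ± 0.168 RPM in Stat3 KO and 61.4 ± 3.02 RPM in Ctrl (SD, n = 3 each). Summed over the libraries of a group, the rate in Stat3 KO was 0.689% of that in Ctrl (exact 95% interval 0.366% to 1.18%, counting error only), or 145-fold lower. On the log2(RPM + 1) scale the fold change was -5.47, the lowest of the 12846 amplicons tested. The amplicon passed the filter on low values, a 6-library mean of 1 RPM or more, through the controls.

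**Figure D1:**
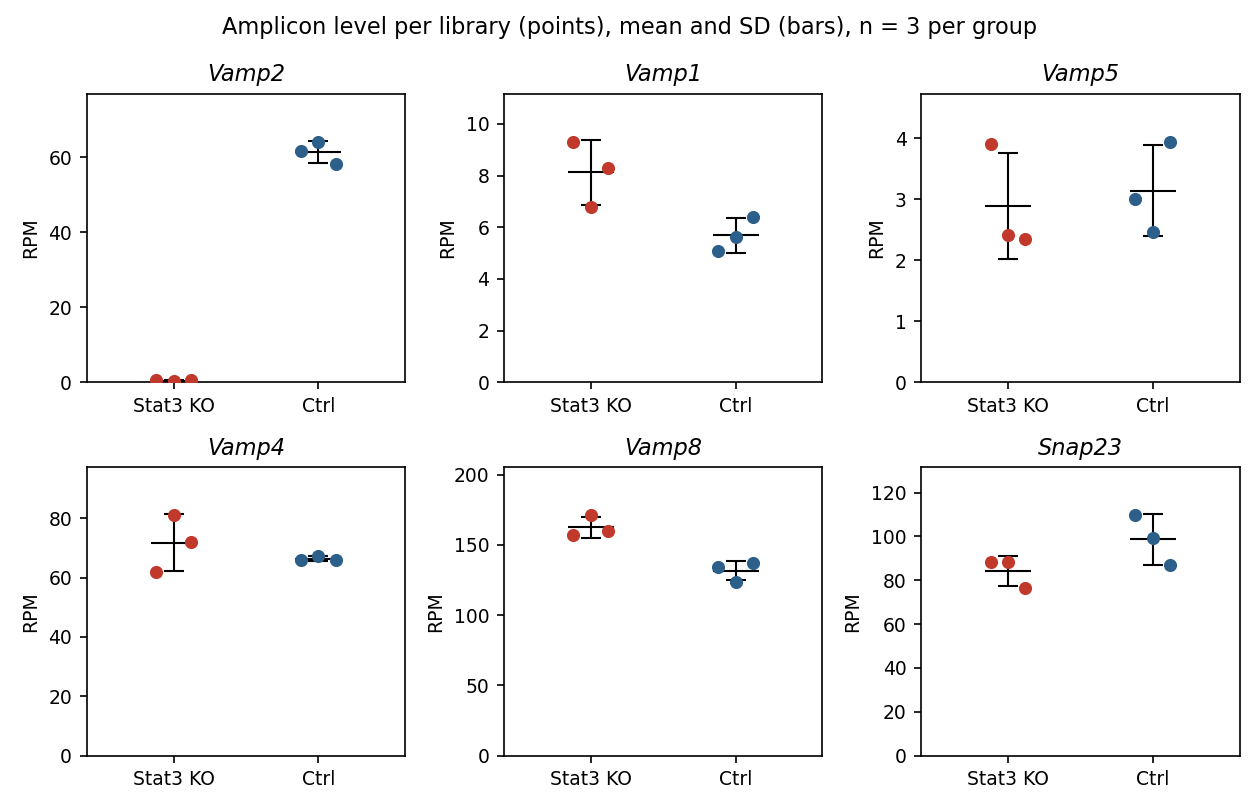
RPM of the 6 measured genes in each library (points), with the group mean and SD (bars, n = 3 per group), Stat3 KO on the left and Ctrl on the right of each panel, every axis starting at 0. Vamp2 lies at 0.219 to 0.511 RPM in Stat3 KO and at 58.1 to 64.1 RPM in Ctrl, Vamp1 and Vamp8 have higher, separate Stat3 KO points, and Vamp4, Vamp5 and Snap23 overlap.

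The Vamp2 value reports 1 target, whose place in the transcript is not stated in the labels or the table. A single amplicon cannot tell a lost transcript from a lost target within it. The GENCODE M21 annotation lists 5 transcripts of the gene, 2 of them protein-coding. The longest run of bases that a protein-coding Vamp2 transcript shared with one of a relative was 18 for Vamp1, 17 for Vamp3 and for Vamp5, 12 for Vamp4, and 11 for Vamp8 and for Snap23. These runs are descriptions of the annotated transcripts and say nothing of where the primers bind.

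Vamp2 lies on chromosome 11 from 69088490 to 69092384 on the plus strand (GRCm38, GENCODE M21). Stat3 is on the same chromosome, 31.8 Mb away. The genes around Vamp2 did not share the size of its change. Of the 10 genes on each side with an amplicon, 13 passed the filter, and 1 of the 13 was called (limma, adjusted p under 0.05), where 16.7% of all amplicons tested were called. That gene was Arhgef15, a guanine nucleotide exchange factor gene, with 13.5 ± 2.67 RPM in Stat3 KO and 18.5 ± 1.95 RPM in Ctrl (SD, n = 3 each, adjusted p = 0.0389). Its call was lost in 11 of 17 alternative analyses. Per1, a circadian clock gene and the next gene beyond Vamp2, was at 62.4 ± 9.34 RPM in Stat3 KO and 66.1 ± 2.01 RPM in Ctrl (SD, n = 3 each), with a log2 fold change of -0.09 ± 0.10 (SE). On the other side, Tmem107, a gene of the ciliary transition zone, was at 40.7 ± 4.92 RPM in Stat3 KO and 43.8 ± 2.21 RPM in Ctrl (SD, n = 3 each). Neither passed the test (limma, adjusted p = 0.576 for Per1 and 0.520 for Tmem107). The other nearest tested genes, Borcs6 and Snord118 on one side and Cntrob and Trappc1 on the other, had log2 fold changes of -0.07, -0.33, -0.27 and -0.07, and none of the 4 was called. The 13 log2 fold changes ran from -0.50 for Slc25a35 to -0.04 for Pfas, with a median of -0.19, beside a median of -0.06 over all amplicons tested.

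**Figure D2:**
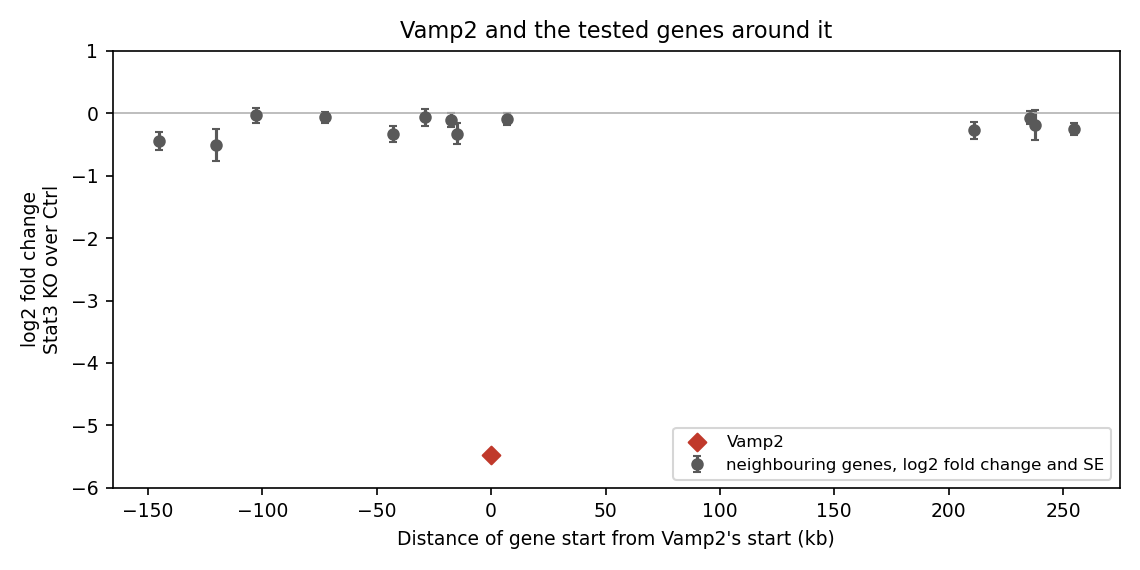
Log2 fold change (Stat3 KO over Ctrl, log2(RPM + 1) scale) of Vamp2 (diamond) and of the 13 tested genes around it (points with SE), by distance of each gene's start from that of Vamp2 in kb. Vamp2 lies at -5.47, and its neighbours lie between -0.50 and -0.04.

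Among the 9087 amplicons whose Ctrl mean reached 10 RPM, 5 had a Stat3 KO mean at least 10 times lower, and Vamp2 was one of them. The others kept 3.16% of the control mean (Ddr1), 6.83% (Axin1 and Mdfi) and 9.15% (Hist1h2ab), against 0.673% for Vamp2. Ddr1, Axin1 and Mdfi are on chromosome 17, Hist1h2ab is on chromosome 13, and Vamp2 is the member on chromosome 11. In the reverse direction, among the 8934 amplicons whose Stat3 KO mean reached 10 RPM, 6 were 12.9 to 26.1 times higher in Stat3 KO, those of Cxcl9, Cxcl10, Gbp4, Gm12250, Lrp10 and Serpina3f. Over the 6 libraries, the amplicons whose log2(RPM + 1) values followed Vamp2 most closely were those of Mdfi, Serpine2, Axin1, Gm7977 and Phf21a, with Pearson's r of 0.998 to 0.999 among 9017 amplicons compared. Their means in Stat3 KO and in Ctrl were 2.56 and 37.5 RPM for Mdfi, 262 and 477 RPM for Serpine2, 1.77 and 25.9 RPM for Axin1, 57.6 and 80.1 RPM for Gm7977, and 52.4 and 76.3 RPM for Phf21a. With 3 libraries on each side of a wide gap, such a correlation mostly measures the split into groups.

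Of the 5 measured relatives, Vamp8 was called higher in Stat3 KO and the other 4 were not called. Over the whole panel 5.71% of the amplicons tested were called higher and 11.0% lower. Nothing is read from this count, since the set was chosen on the same comparison. With all 6 libraries, none of the relatives was called lower by limma, edgeR or DESeq2, and 1 of them, Snap23, was lower at an unadjusted p under 0.05 in limma. The groups did not overlap for 2 relatives, Vamp1 and Vamp8, both higher in Stat3 KO, and 33.8% of all amplicons tested did not overlap. The median log2 fold change of the 5 was 0.10, beside -0.06 over all amplicons tested. In bulk tissue, a change in the number of cells of a type and a change of RNA per cell cannot be told apart.

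Vamp8 encodes endobrevin, an R-SNARE of late endosomes and lysosomes that also serves granule secretion in platelets, mast cells and the exocrine pancreas. Its amplicon gave 157, 171 and 160 RPM in Stat3 KO, against 134, 124 and 137 RPM in Ctrl. All 3 knockout libraries were above the highest control. The means were 163 ± 7.55 RPM in Stat3 KO and 132 ± 6.99 RPM in Ctrl (SD, n = 3 each). The log2 fold change was 0.30 ± 0.08 (SE, 95% interval 0.14 to 0.47, limma adjusted p = 0.0125). The call was lost without Stat3 KO replicate 2 (0.27, adjusted p = 0.0740), without Ctrl replicate 2 (0.26, adjusted p = 0.0806) and in limma without a variance trend (adjusted p = 0.0803). Over the 17 alternatives its adjusted p ran from 5.87e-04 to 0.0806.

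Markers of blood-derived cells moved beside Vamp8. The shares of all amplicons tested were 5.71% called higher and 11.0% called lower. In the macrophage list 4 of 7 tested markers were called higher, among them Lyz2 and Cd68, and 1, Csf1r, was called lower. The list sum was 483 to 522 RPM in Stat3 KO and 384 to 407 RPM in Ctrl. Means in Stat3 KO and Ctrl were 230 and 134 RPM for Lyz2 and 125 and 89.7 RPM for Cd68. They were 29.6 and 39.9 RPM for Csf1r and 71.7 and 86.6 RPM for Mrc1, which was not called. The sum leans on Lyz2 and Cd68 and hides the markers that were lower. The osteoclast list summed to 1070 to 1096 RPM in Stat3 KO and 757 to 820 RPM in Ctrl. Of its 8 tested markers Mmp9 and Atp6v0d2 were called higher, Calcr was called lower, and 5, Acp5 among them, were not called. Most of the difference in the sum came from Mmp9, at a mean of 671 RPM in Stat3 KO and 411 RPM in Ctrl. All 5 tested neutrophil markers fell, with a list sum of 37.4 to 40.8 RPM in Stat3 KO and 88.4 to 90.1 RPM in Ctrl. The megakaryocyte and platelet list was at 79.3 to 92.5 RPM in Stat3 KO and 83.9 to 88.2 RPM in Ctrl. Most of that sum was Pf4, at a mean of 73.3 RPM in Stat3 KO and 72.6 RPM in Ctrl. No marker of these lists was at 0 in every library, though the macrophage gene C1qa was at most 0.11 RPM in Stat3 KO and 0.086 RPM in Ctrl. Their part in the Vamp8 difference was not tested.

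Vamp1 encodes synaptobrevin 1, the R-SNARE that predominates at the neuromuscular junction, and belongs with Vamp2 to the brevins. It was read at a low level, with 110, 62 and 81 reads in Stat3 KO and 59, 75 and 78 reads in Ctrl. In RPM these were 9.32, 6.79 and 8.28 in Stat3 KO, against 5.07, 5.61 and 6.41 in Ctrl. The groups were separate, with the lowest knockout library just above the highest control. The means were 8.13 ± 1.27 RPM in Stat3 KO and 5.69 ± 0.673 RPM in Ctrl (SD, n = 3 each). The log2 fold change of 0.44 ± 0.16 (SE, 95% interval 0.10 to 0.78, not adjusted over genes) did not pass (limma, adjusted p = 0.0655). Of 17 alternative analyses it passed in 4. These were TMM factors (0.49, adjusted p = 0.0431), median-of-ratios factors (0.50, adjusted p = 0.0409), quantile normalization (0.51, adjusted p = 0.0388) and edgeR (0.58, adjusted p = 0.0400). It did not pass in DESeq2 (0.58, adjusted p = 0.0644) or in limma with no filter (0.44, adjusted p = 0.185). Leaving out a library gave an adjusted p of 0.0542 to 0.210. In RPM the Vamp1 means differed by far less than the Vamp2 means, although amplicons may be amplified with different efficiency, so that their RPM values do not compare transcript levels.

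The neuron marker list, which could contribute brevins, summed to 95.1 to 107 RPM in Stat3 KO and 90.2 to 97.9 RPM in Ctrl. Of its 6 tested members, 1 rose, the neurofilament gene Nefl, at 17.5 ± 0.662 RPM in Stat3 KO and 11.1 ± 0.685 RPM in Ctrl (SD, n = 3 each, limma adjusted p = 0.00240). The list sum leans on Gap43, at a mean of 54.5 RPM in Stat3 KO and 55.7 RPM in Ctrl. Syp, a synaptic vesicle gene of the same list, was too low to be tested, at 0.219 to 0.339 RPM in Stat3 KO and 0.903 to 1.63 RPM in Ctrl. Its groups were separate, and the groups of 33.8% of all amplicons tested did not overlap. Elavl3 was at 0 in every library. The skeletal muscle list summed to 13204 to 14149 RPM in Stat3 KO and 14495 to 14964 RPM in Ctrl, with Ttn, Actn2 and Myh3 lower of 10 tested. Beside these neuron and muscle counts, 5.71% of all amplicons tested were called higher and 11.0% lower. The Schwann cell list summed to 33.9 to 39.3 RPM in Stat3 KO and 40.2 to 46.6 RPM in Ctrl, and none of its 5 tested members was called in limma or had an unadjusted p under 0.05. Their part in the values of Vamp1 and Vamp2 was not tested.

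Vamp5, named myobrevin for its rise in forming muscle fibres, was the lowest of the relatives. It had 3.90, 2.41 and 2.35 RPM in Stat3 KO, against 3.01, 2.47 and 3.94 RPM in Ctrl, from 22 to 48 reads per library. The groups overlapped. The log2 fold change was -0.10 ± 0.21 (SE, 95% interval -0.53 to 0.33, limma adjusted p = 0.794), and it was 0.04 without Ctrl replicate 3. Vamp5 and Vamp8 are neighbours on chromosome 6, from 72368794 to 72380468 and from 72385223 to 72390703 (GRCm38), 4.76 kb apart and both on the minus strand.

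Vamp4 serves traffic between endosomes and the trans-Golgi network. Its amplicon gave 61.9, 81.1 and 72.2 RPM in Stat3 KO, against 66.0, 67.3 and 66.1 RPM in Ctrl. The knockout libraries lay on both sides of the controls. The log2 fold change was 0.10 ± 0.10 (SE, 95% interval -0.10 to 0.30, limma adjusted p = 0.525).

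Snap23 encodes the SNAP protein of the cell surface outside neurons, a Q-SNARE that pairs with Vamp2, Vamp3, Vamp7 and Vamp8. It was at 88.2, 88.3 and 76.2 RPM in Stat3 KO, against 109.7, 99.4 and 86.7 RPM in Ctrl. The lowest control lay below the upper knockout libraries. The log2 fold change was -0.22 ± 0.10 (SE, 95% interval -0.42 to -0.02, not adjusted over genes) and did not pass (limma, adjusted p = 0.116). It passed in 1 of 17 alternative analyses, without Ctrl replicate 3 (-0.31, adjusted p = 0.0382), and its adjusted p in the others ran up to 0.410. With TMM, median-of-ratios or quantile scaling it was not lower at an unadjusted p under 0.05 in limma. Added together, the 5 relatives gave 320, 350 and 319 RPM in Stat3 KO and 318, 299 and 300.4 RPM in Ctrl, a mean difference of 24.1 RPM. Without Snap23, which is not a VAMP, the mean sum was 245 ± 14.9 RPM in Stat3 KO and 207 ± 7.30 RPM in Ctrl. Most of that difference was Vamp8 alone, at a mean of 163 RPM in Stat3 KO and 132 RPM in Ctrl. With Snap23 and Vamp2 both included the mean sum was 330.1 ± 17.3 RPM in Stat3 KO and 367 ± 11.1 RPM in Ctrl (SD, n = 3 each). These sums join amplicons that may differ in efficiency, and no test was made of them.

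**Figure D3:**
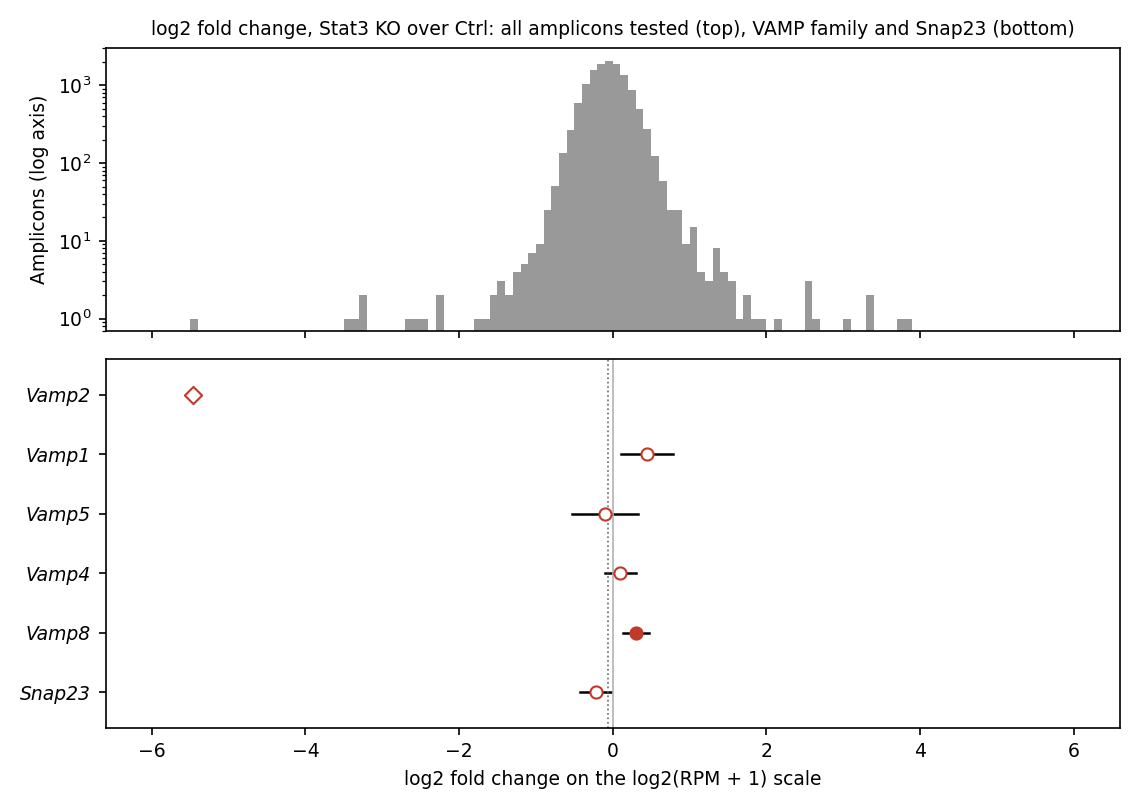
Upper panel, number of amplicons (log axis) by log2 fold change, Stat3 KO over Ctrl, for all 12846 tested, and lower panel, the 6 measured genes on the same horizontal axis with 95% intervals (none for Vamp2, which is a description). The filled point is the called gene, Vamp8, the dotted line is the median of all amplicons (-0.06), and Vamp2 at -5.47 stands left of every other amplicon.

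Promoter windows of 300 bases, from 250 before to 50 after a RefSeq start site (GRCm38.p6), were matched for 5 of the 8 genes, Vamp1, Vamp4, Vamp5, Vamp8 and Snap23. They were searched for TTCNNNGAA, the palindromic core to which activated STAT dimers bind, which reads the same on both strands. The motif was present in the window of Vamp8 and in none of the other windows of these genes, and 8.30% of 32851 windows of this length held it. The windows of Vamp8 and Vamp1 are shown because these were the relatives whose groups did not overlap. The capitals mark the match in Vamp8, whose first base lies 121 bases before the start site. A match describes the letters of a window and does not show that a factor binds there, and windows without one say nothing of the factor.
Vamp8, chr6:72390618-72390917, minus strand: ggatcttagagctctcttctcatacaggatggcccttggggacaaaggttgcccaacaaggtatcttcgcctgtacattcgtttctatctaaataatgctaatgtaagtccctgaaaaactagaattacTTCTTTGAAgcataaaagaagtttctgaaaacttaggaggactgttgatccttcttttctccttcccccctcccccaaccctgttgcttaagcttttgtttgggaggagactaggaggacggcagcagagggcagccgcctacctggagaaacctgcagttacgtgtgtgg
Vamp1, chr6:125215331-125215630, plus strand: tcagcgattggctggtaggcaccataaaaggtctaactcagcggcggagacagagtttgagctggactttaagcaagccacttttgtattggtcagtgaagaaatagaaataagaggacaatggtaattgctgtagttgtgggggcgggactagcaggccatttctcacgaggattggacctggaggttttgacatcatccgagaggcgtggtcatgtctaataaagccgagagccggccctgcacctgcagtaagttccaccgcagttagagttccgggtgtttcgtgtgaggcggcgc

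The other parts of the fusion machinery were read in 9 lists with 111 genes in the table, of which 86 passed the filter. In all, 3 of the 86 were called higher (3.49%) and 13 lower (15.1%), beside 5.71% and 11.0% of all amplicons tested. The median log2 fold change of the 86 was -0.09, beside -0.06 over all. With TMM factors the split was 6 higher and 7 lower, while that of all amplicons was 1042 and 928, against 733 and 1409 in the deposited scaling. Leaving out Stat3 KO replicate 2 left 6 lower genes, Stat3 KO replicate 3 left 8, and Ctrl replicate 1 or Ctrl replicate 2 left 7.

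In the list of surface Q-SNAREs, 2 of 5 tested were called lower and the other 3 did not pass. Over all amplicons tested, 11.0% were called lower. Not every gene of this list is a known partner of Vamp2. Stx2, a syntaxin of the plasma membrane, was at 28.2, 26.2 and 26.2 RPM in Stat3 KO, against 34.2, 39.0 and 34.8 RPM in Ctrl, with all knockout libraries below all controls (log2 fold change -0.41, limma adjusted p = 0.0111). Snap29, a SNAP protein without a membrane anchor, was at 17.8 ± 2.13 RPM in Stat3 KO and 24.5 ± 1.70 RPM in Ctrl (SD, n = 3 each, adjusted p = 0.0159). Stx4a, the syntaxin that pairs with Snap23 and Vamp2 in glucose transporter insertion, was at 53.4, 54.6 and 57.6 RPM in Stat3 KO, against 47.8, 47.5 and 46.8 RPM in Ctrl. Its groups did not overlap, and its log2 fold change of 0.22 did not pass (adjusted p = 0.110). Snap25, the neuronal SNAP protein, was at most 0.102 RPM in Stat3 KO and 0.172 RPM in Ctrl and was not tested.

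Inside the cell, the endosome and trans-Golgi list held 1 higher and 1 lower of 8 tested (12.5% each). Of all amplicons tested, 5.71% were called higher and 11.0% lower. Stx8, a late endosomal Q-SNARE, rose to 69.6 ± 4.93 RPM in Stat3 KO, against 53.9 ± 3.10 RPM in Ctrl (log2 fold change 0.36, limma adjusted p = 0.0108). Stx6, a partner of Vamp4 at the trans-Golgi network, fell to 26.4 ± 1.10 RPM in Stat3 KO, against 35.9 ± 2.86 RPM in Ctrl (log2 fold change -0.43, adjusted p = 0.00904; SD, n = 3 each). Of 11 tested SNAREs of the endoplasmic reticulum and Golgi, 2 fell (18.2%, beside 11.0% over all amplicons tested). Stx5a, the central Golgi syntaxin, was at 125 ± 8.41 RPM in Stat3 KO and 163 ± 5.57 RPM in Ctrl (adjusted p = 0.00223). Ykt6, a lipid-anchored R-SNARE, was at 43.6 ± 1.90 RPM in Stat3 KO and 56.5 ± 9.88 RPM in Ctrl (SD, n = 3 each, adjusted p = 0.0330).

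Of 12 tested regulators, 1 was called higher and 1 lower (8.33% each), beside 5.71% and 11.0% of all amplicons tested. Stxbp6, or amisyn, which carries a VAMP-like coil and competes for syntaxins, rose to 81.4 ± 5.95 RPM in Stat3 KO, against 60.4 ± 6.34 RPM in Ctrl (log2 fold change 0.43, limma adjusted p = 0.00446). Vps33a, the Sec1/Munc18 protein of lysosomal fusion, fell to 15.3 ± 0.680 RPM in Stat3 KO, against 23.8 ± 1.32 RPM in Ctrl (log2 fold change -0.61, adjusted p = 0.00134; SD, n = 3 each). Each was the single call in its direction among 12 tested regulators. Nsf, which takes SNARE bundles apart, was the 1 called of 4 disassembly genes, at 11.1 ± 1.91 RPM in Stat3 KO and 15.9 ± 2.98 RPM in Ctrl (adjusted p = 0.0341), a call lost in 10 of 17 alternative analyses.

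Of 12 tested calcium sensors, complexins and priming factors, 1 fell (8.33%, beside 11.0% called lower over all amplicons tested). This was Syt6, a synaptotagmin known from the acrosome of sperm, at 5.67, 4.05 and 3.27 RPM in Stat3 KO and 8.25, 11.1 and 9.53 RPM in Ctrl, with separate groups (log2 fold change -1.01, limma adjusted p = 5.30e-04). Vesicle membrane proteins had 3 lower of 13 tested, namely Sypl, Scamp2 and Sv2b, with log2 fold changes of -0.32, -0.28 and -0.64. The exocyst, which tethers vesicles before fusion, had Exoc5 and Exoc7 lower of 10, at -0.31 and -0.39. Among 11 tested secretory Rab GTPases, 1 was called higher, beside 5.71% of all amplicons tested. This was Rab11a of the recycling endosome, at 0.34, and the other 10 did not pass. Of these 16 called genes, Stx5a, Syt6 and Vps33a passed in all 17 alternative analyses and each of the other 13 failed in at least 1. The least stable calls were Ykt6, which passed in 5, Scamp2, which passed in 6, Nsf and Exoc5, which passed in 7 each, and Sv2b, which passed in 6 of 16. None of the 16 changed sign in an alternative.

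**Figure D4:**
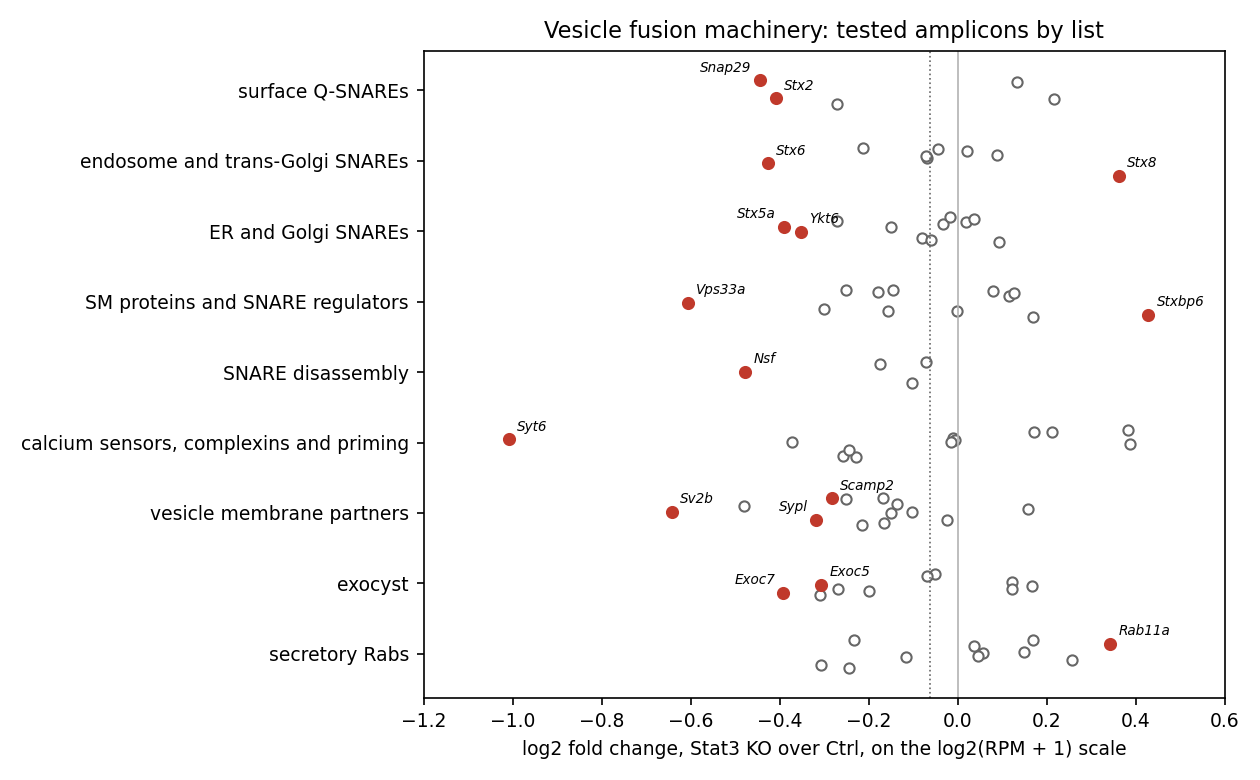
Log2 fold change (Stat3 KO over Ctrl, log2(RPM + 1) scale) of the 86 tested genes of the fusion machinery, 1 row per list, with the 16 called genes filled and named (limma, adjusted p under 0.05) and the others open. The dotted line marks the median of all amplicons (-0.06), 13 filled points lie to the left and 3 to the right, and heights within a row carry no meaning.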

How the data were processed

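The labels' protocols give Trizol extraction, cDNA from a SuperScript VILO kit and Ion AmpliSeq mouse panel libraries prepared on an Ion Chef. The authors deposited RPM values for 23930 amplicons. No source used here names the aligner, counter or genome build. Low values step by whole reads, and 100% of the values above 0 were whole within 0.1 read, with a read worth 0.0748 to 0.110 RPM. There were no molecular identifiers, so intervals from reads cover counting error only. Dates standing in for 27 symbols were read back from the amplicon names.

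The 12846 amplicons averaging 1 RPM or more were compared on log2(RPM + 1), which understates changes of low genes, with limma 3.58.1 (R 4.3.3, trend, empirical Bayes), two-sided, with Benjamini-Hochberg adjustment over all of them and a threshold of 0.05. The labels do not say whether replicates were separate embryos, so p-values may reflect technical spread only. Libraries of 1 group differed beyond counting noise (chi-square per degree of freedom 4.54 to 7.80). The fit was also run on simulated reads. These had the same spread beyond counting noise for every amplicon, and changed genes picked so as not to shift the library total. Nothing about these data is concluded from that run. Alternatives were pseudocounts of 0.1 and 10 RPM, no filter, a filter at 5 RPM, TMM, median-of-ratios and quantile scaling, no trend, a replicate block, leaving out each library, and edgeR 4.0.16 (1052 higher, 922 lower) and DESeq2 1.42.0 (998 higher, 775 lower) on the recovered reads.

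The members, lists and tests were chosen with earlier results of these data known. The genes named are the members, Stat3, up to 4 called genes of each list, up to 3 markers of a list by mean level, the 3 tested genes nearest Vamp2 on each side, the 5 amplicons most like it in pattern, and amplicons at least 10 times apart between groups. Other genes were named after their values were seen, namely Arhgef15, Slc25a35, Pfas, Stx4a, Snap25, the called or absent markers, and the genes under the other observations. A gene of the fusion lists and a gene of the marker lists are not reported here and are left out of their counts and sums. Figures were drawn with matplotlib 3.10.9.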

Additional observations from a re-analysis of the deposited data

How the results depend on the processing

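The fall of Vamp2 chose the set, so its values under the alternatives are a description only. The Vamp2 log2 fold change was -6.97 with a pseudocount of 0.1 RPM, -2.78 with 10 RPM, -7.09 in edgeR and -7.12 in DESeq2. Without 1 library it ran from -5.52 to -5.37. The number of relatives called higher was 2 with TMM factors, median-of-ratios factors, quantile normalization and edgeR, 0 without a variance trend, and 0 to 1 without 1 library, and 0 to 1 were called lower without 1 library. The log2 fold change of Vamp5 ran from -0.28 to 0.0373 without 1 library, with the change of sign without Ctrl replicate 3, and no other relative changed sign. The median of the relatives ran from 0.01 to 0.20 over the alternatives.

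In the fusion lists 6 genes were higher with TMM, median-of-ratios and quantile scaling, edgeR and DESeq2, and 1 without a trend. The lower count was 9 with no filter, 8 with quantile scaling and edgeR, 7 with TMM factors, median-of-ratios factors and DESeq2, and 5 without a trend. Without 1 library 2 to 3 were higher and 6 to 12 lower. Over all amplicons 361 were higher and 634 lower without a trend, and the lower count was 869 with no filter, 928 with TMM factors, 881 with median-of-ratios factors, 877 with quantile scaling, 922 in edgeR and 775 in DESeq2. Without 1 library 442 to 705 were higher and 729 to 1324 lower. The count of called Vamp2 neighbours was 0 with no filter, TMM, median-of-ratios and quantile scaling, no trend, edgeR and DESeq2 (2 to 4 at an unadjusted p under 0.05), and 0 to 2 without 1 library. The cause of these shifts was not tested.

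With the replicate number as a block, 836 amplicons were higher and 1626 lower, 2 neighbours were called, and the calls among the relatives were as without it. After each amplicon's group mean was taken away, the deviations of same-numbered libraries correlated at 0.0126, -0.0193 and 0.107. Those of differently numbered libraries correlated at -0.0983 to 0.0979. These values do not show a pairing by number, but so few libraries cannot exclude one. Depth limits Vamp2 in Stat3 KO, with 2 to 6 reads, and Vamp5, with 22 to 48.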

Other observations

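A few genes that work with the brevins in neurons were read below the filter of 1 RPM and so were not tested, and they are named after their values were seen. Synaptophysin (Syp), a synaptic vesicle protein that binds Vamp2 and a member of the neuron marker list, was at 0.288 ± 0.0621 RPM in Stat3 KO and 1.24 ± 0.367 RPM in Ctrl (SD, n = 3 each). Unc13a, a priming factor of synaptic vesicles, was at 0 RPM in each Stat3 KO library and at 0.275 ± 0.142 RPM in Ctrl (SD, n = 3), a difference of few reads. The synaptotagmin Syt1 was at 0.671 ± 0.405 RPM in Stat3 KO and 0.706 ± 0.160 RPM in Ctrl, and the synapsin Syn1 at 0.331 ± 0.0775 RPM in Stat3 KO and 0.212 ± 0.0757 RPM in Ctrl.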
